A study of Mus musculus with 2 samples.

Results

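The glycolytic enzyme genes described here are 10 named genes of the pathway from glucose to lactate: Hk2, Gpi1, Aldoa, Tpi1, Gapdh, Pgk1, Pgam1, Eno1, Pkm and Ldha. They were chosen by gene name from tables of candidate N6-methyladenosine (m6A) positions in native poly(A) RNA, which list 8262 named genes in all. The RNA came from mouse retinal organoids, tissue aggregates grown from stem cells, made from the wild-type (WT) Rx:GFP line, which carries a green fluorescent reporter of the eye-field gene Rx (Rax). Both libraries come from organoids at day 6 that received AGN at 0.1 µM for the 6 days, carry the same batch label, and form 1 group with n = 2. No untreated, mutant or later sample was analysed here, and no comparison between conditions was possible. Nothing in the labels says that the libraries came from separate cultures, so the spread between them may be technical.

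m6A is a methyl mark placed on adenosines of mRNA by a writer complex whose catalytic subunit is METTL3, mostly within the sequence context DRACH. It is bound by reader proteins and is best known for shortening the life of the mRNAs that carry it. Glycolysis splits glucose into pyruvate with a net gain of ATP, and lactate dehydrogenase then turns pyruvate into lactate. Embryonic retinal progenitors and many other dividing cells run it at a high rate, and its enzymes are encoded by some of the most abundant mRNAs of a cell.

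Every listed position lay on 1 of 4 motifs of 5 bases, and these letters are shown because the typical fraction modified differs between them: its median over all shared sites was 0.677 at GGACA and 0.220 to 0.262 at the other 3 motifs. The capital marks the adenosine of the DRACH context. The listed context is these 5 bases in DNA letters, and no longer sequence around a site was used here.
motif 1: agAct
motif 2: ggAca
motif 3: ggAcc
motif 4: ggAct

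A site was a listed position with at least 20 reads in its library. The 10 genes had 28 listed positions of 26441 in replicate 1 and 40 of 50099 in replicate 2, of which 22 and 19 were sites. A total of 16 sites, in 6 of the 10 genes, were found at the same transcript and position in both libraries. They make up 16 of the 4851 shared sites obtained with 1 transcript per gene. Of all genes listed in either library 22.8% had a shared site, against 6 of the 9 listed members. The organoid label was set beside marker genes: all 7 eye-field genes looked for were listed (Rax, Lhx2, Six3, Six6, Pax6, Sox2 and Otx2), so reads of each were present. None of 7 pluripotency, mesoderm and endoderm genes was listed in either library, which does not show that they were not expressed, since the criteria for listing are not stated.

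Of the 6 genes with shared sites all but Ldha were deeply covered at them, and most of the sites had a low fraction modified. The fraction modified is the deposited share, between 0 and 1, of reads scored as modified at a position. Over the 16 shared sites its median was 0.199 in replicate 1 and 0.222 in replicate 2, or 0.211 ± 0.0166 (SD, n = 2). Over all 4851 shared sites it was 0.375 and 0.362, or 0.368 ± 0.00940 (SD, n = 2). In both libraries 14 of the 16 sites lay under 0.5, as did 56.1% of all shared sites. No member site reached 0.9 in both libraries, against a background of 9.44%. The site nearest to that limit, in Pgam1, lay at 0.899 and 0.893.

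**Figure D1:**
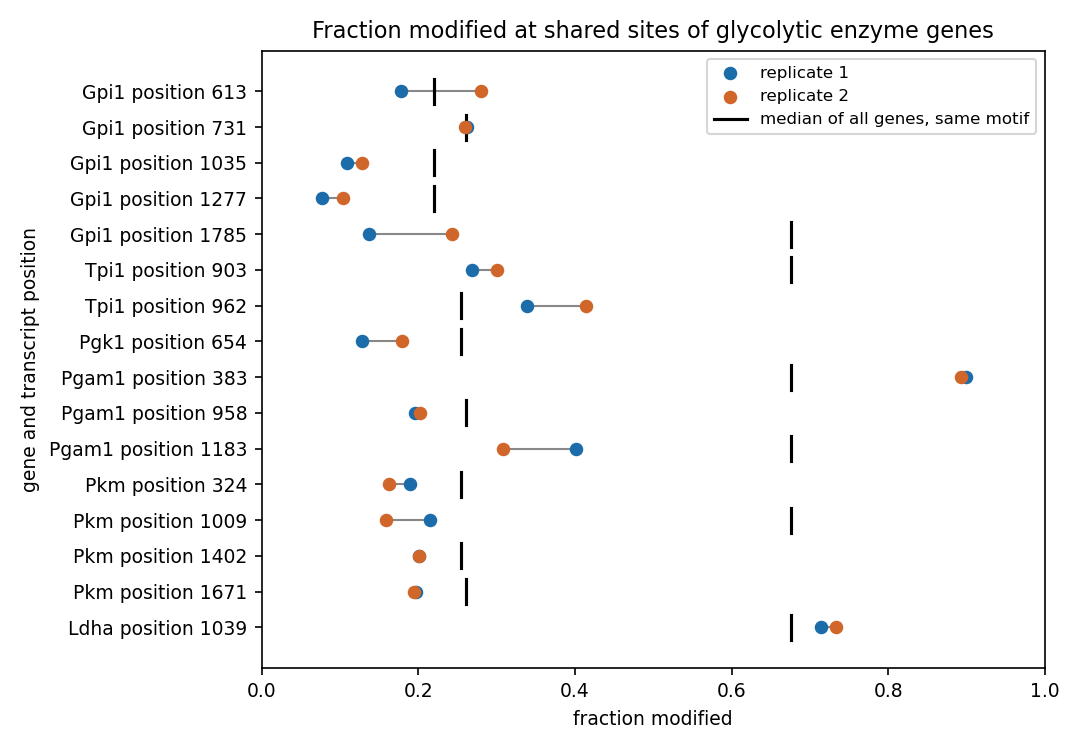
Fraction modified (horizontal axis, 0 to 1) at the 16 shared sites of 6 glycolytic enzyme genes, in pathway order, with 1 point per library joined by a line and a black tick at the median of all genes for the same motif. The site at position 383 of Pgam1 (0.899 and 0.893) and that of Ldha (0.714 and 0.733) stand to the right, and the other 14 sites lie under 0.5.

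The first enzymes of the pathway differed in how much could be measured. Hk2 encodes hexokinase 2, which phosphorylates glucose on entry (chromosome 6, 82702006 to 82751435; gene coordinates here and below as deposited, in a build the tables do not name). It had no listed position in replicate 1 and 15 in replicate 2, all on 1 transcript and none above 12 reads. Hk2 therefore gave no site, and the depth allows no statement on its modification.

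Gpi1 encodes glucose-6-phosphate isomerase, which converts glucose 6-phosphate to fructose 6-phosphate (chromosome 7, 33900755 to 33929761). It had the most shared sites of the 10 genes, 5 on transcript ENSMUST00000038027.5, with a mean fraction of 0.152 in replicate 1 and 0.203 in replicate 2, or 0.178 ± 0.0358 (SD, n = 2). The 3 GGACC sites had fractions of 0.177 and 0.280 at position 613 (88 and 179 reads), 0.108 and 0.128 at position 1035 (96 and 195 reads), and 0.0769 and 0.103 at position 1277 (101 and 201 reads), each given for replicate 1 and then replicate 2. Their order along the transcript, highest at position 613 and lowest at position 1277, was the same in both libraries. Positions 1035 and 1277 differed by only 0.0315 and 0.025, and the counting error of that difference was not computed. Position 613 exceeded position 1277 by 0.101 in replicate 1 and by 0.176 in replicate 2. The AGACT site at position 731 had 0.262 over 93 reads and 0.260 over 183 reads, which departs from the median of that motif over all genes by -0.0048 and 0.00215. The GGACA site at position 1785 had 0.136 over 119 reads and 0.243 over 231 reads. Both values lie far under the median of all GGACA sites, which was 0.688 in replicate 1 and 0.667 in replicate 2. Of the 5 sites 4 were higher in replicate 2, by 0.0198 to 0.107.

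Aldoa encodes aldolase A, which splits fructose 1,6-bisphosphate (chromosome 7, 126394406 to 126399923). A single position was listed, a GGACC at position 769 of transcript ENSMUST00000106348.7, whose fraction in replicate 1 was 0.138 (36 reads). Nothing was listed in replicate 2, so the value has no replicate.

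Tpi1 encodes triosephosphate isomerase, which interconverts the products of aldolase (chromosome 6, 124787549 to 124791259). Its 2 shared sites lie 59 nt apart on transcript ENSMUST00000172132.8. The GGACA at position 903 had 0.268 over 208 reads and 0.300 over 371 reads. The GGACT at position 962 had 0.339 over 209 reads and 0.414 over 378 reads. The site with the motif that is usually the more modified was the lower of the pair in both libraries, by 0.0705 and 0.113. A further GGACT site at position 692 was listed in replicate 2 alone, with 0.330 over 350 reads.

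Gapdh encodes glyceraldehyde-3-phosphate dehydrogenase, a widely used reference gene (chromosome 6, 125138678 to 125143430). It had 1 listed position in each library, on different transcripts, with 0.786 over 16 reads at position 215 of ENSMUST00000147954.1 in replicate 1 and 0.5 over 6 reads at position 2691 of ENSMUST00000192506.1 in replicate 2. Neither reached 20 reads. Eno1, which encodes enolase 1, was not listed at all, nor was its near-identical copy Eno1b. Since a position appears only if it carries a listed motif, a missing gene shows neither low expression nor unmodified RNA.

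Pgk1 encodes phosphoglycerate kinase 1, the enzyme of the first ATP-forming step (chromosome X, 105230706 to 105247305). Its single shared site, a GGACT at position 654 of transcript ENSMUST00000081593.12, had 0.128 over 275 reads and 0.179 over 456 reads, or 0.154 ± 0.0357 (SD, n = 2). Both values lie under the GGACT medians of all genes, 0.267 and 0.245.

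Pgam1 encodes phosphoglycerate mutase 1, which moves the phosphate group of 3-phosphoglycerate (chromosome 19, 41900362 to 41907099). It held the highest site of the set, a GGACA at position 383 of transcript ENSMUST00000011896.6, with 0.899 over 177 reads and 0.893 over 427 reads, or 0.896 ± 0.00445 (SD, n = 2). Another GGACA on the same transcript, at position 1183, had 0.401 over 220 reads and 0.309 over 513 reads. The earlier site exceeded the later one by 0.498 in replicate 1 and 0.584 in replicate 2, far more than the libraries differed at either site, although the 2 sites share motif and transcript. The AGACT at position 958 had 0.196 over 206 reads and 0.202 over 484 reads. A GGACC at position 1170, 13 nt before the later GGACA, was listed in replicate 1 alone with 0.423 over 220 reads. With n = 2, no exact paired permutation test can give less than p = 0.5, and each of the 5 pairs of equal motif within a member transcript gave that value (two-sided).

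Pkm encodes the muscle-type pyruvate kinase, which makes pyruvate and ATP (chromosome 9, 59563651 to 59586658). Its 4 shared sites on transcript ENSMUST00000034834.15 were the most deeply covered of the set and almost equal in fraction, whatever their motif. The GGACT sites had 0.189 over 351 reads and 0.162 over 788 reads at position 324, and 0.201 over 578 and 0.201 over 1180 reads at position 1402. The AGACT at position 1671 had 0.197 over 618 and 0.194 over 1238 reads. The GGACA at position 1009 had 0.215 over 461 and 0.159 over 964 reads. All 8 values thus lie between 0.159 and 0.215. The mean over the 4 sites was 0.190 ± 0.0151 (SD, n = 2). A GGACC at position 979 was listed in replicate 1 alone, with a higher fraction of 0.476 over 441 reads. Positions on 2 further Pkm transcripts, ENSMUST00000163694.3 and ENSMUST00000214571.1, had 5 to 11 reads and gave no site.

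Ldha encodes the A subunit of lactate dehydrogenase, which reduces pyruvate to lactate (chromosome 7, 46490899 to 46505051). Its listed positions were spread over 4 transcripts, and only 1 of these, ENSMUST00000209984.1, was listed in both libraries. There a GGACA at position 1039 had 0.714 over 22 reads and 0.733 over 46 reads, or 0.724 ± 0.0134 (SD, n = 2). This is the only shared site of the set with fewer than 50 reads in a library. A GGACA at position 811 of ENSMUST00000048209.15 was listed only in replicate 1, with 0.667 over 303 reads. The GGACA sites of ENSMUST00000005051.5 were listed only in replicate 2, with 0.632 over 53 reads at position 990 and 0.333 over 55 reads at position 1171. On ENSMUST00000210815.1 a GGACA at position 758 had 0.636 over 30 reads in replicate 1. Of the 5 different GGACA positions in Ldha transcripts, 4 had fractions from 0.632 to 0.733. Whether they are the same base seen on different isoforms was not analysed here, and how reads were divided among isoforms is not stated. How reads were divided between a gene and its pseudogene copies, which the mouse genome holds for Gapdh, Ldha, Pgk1 and others of the set, is likewise not stated.

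Ordered by the mean fraction over their shared sites, Ldha (0.724) was followed by Pgam1 with 0.483 ± 0.0219, Tpi1 with 0.330 ± 0.0379, Pkm with 0.190 ± 0.0151, Gpi1 with 0.178 ± 0.0358 and Pgk1 with 0.154 ± 0.0357 (each SD, n = 2). The gaps between Ldha, Pgam1, Tpi1 and Pkm exceeded the spread between libraries at shared sites. This order takes no account of motif. Relative to the motif median, the means in replicates 1 and 2 were 0.0268 and 0.0666 for Ldha and -0.0484 and -0.0626 for Pgam1. They were -0.138 and -0.0657 for Pgk1, -0.174 and -0.0987 for Tpi1, -0.168 and -0.118 for Gpi1, and -0.171 and -0.174 for Pkm. Pgk1 then lay above Tpi1, Gpi1 and Pkm in both libraries. The place of Ldha rests on 1 site of 22 and 46 reads. When unshared sites were included, its mean depended on the transcripts taken: it was 0.451 in replicate 1 and 0.482 in replicate 2 on the transcript with the most sites in each, and 0.551 and 0.566 over all its transcripts, against 0.480 and 0.468 for Pgam1. The range of Gpi1 over the libraries overlapped that of Pkm and that of Pgk1. In replicate 1 their means were 0.2005, 0.152 and 0.128, and in replicate 2 they were 0.179, 0.203 and 0.179, so that Gpi1 lay above Pgk1 in each library while Pkm and Gpi1 changed places. Pkm and Pgk1 were 0.179 each in replicate 2. Ldha and Pgk1 rest on 1 site each, and Tpi1 on 2. Among 740 genes with at least 3 shared sites, whose median of gene means was 0.426, the mean of Gpi1 stood at percentile 3.24 in replicate 1 and 7.84 in replicate 2, and that of Pkm at 7.43 and 5.68. The mean of Pgam1 stood at 65.1 and 60.3. With each fraction taken relative to the median of its motif, the percentiles were 9.32 and 14.6 for Gpi1, 8.65 and 7.03 for Pkm, and 28.8 and 26.1 for Pgam1, which thereby moved from above to below the middle.

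The motif mix of the 16 sites was close to that of all shared sites. GGACA made up 37.5% (6 of 16 sites; 95% Wilson interval 18.5% to 61.4%, for counting error only) against 38.5% of all. GGACT made up 25%, AGACT 18.8% and GGACC 18.8%, against 23.9%, 15.7% and 21.9%. The lower median was therefore examined within motifs. At GGACA the median over the 6 member sites was 0.335 in replicate 1 and 0.305 in replicate 2, and over all other genes 0.688 and 0.667, a difference of -0.358 ± 0.00665 (SD, n = 2). The differences at the other motifs were smaller and of the same sign: -0.102 ± 0.00686 at GGACC, -0.0633 ± 0.0120 at GGACT and -0.0631 ± 0.00955 at AGACT (each SD, n = 2), over 3, 4 and 3 member sites. The 3 GGACC sites all lie on 1 transcript of Gpi1, so that difference is not shown for the set. GGACC sites listed in replicate 1 alone had 0.476 in Pkm, 0.423 in Pgam1 and 0.138 in Aldoa. The GGACC median of all genes in that library was 0.215. All 4 differences exceeded the spread between the libraries, which does not measure the spread among sites or genes. In mean fraction the 6 GGACA member sites ran from 0.187 to 0.896. The exact paired permutation test gave p = 0.5 for each difference, two-sided, the least it can give.

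Counted by site, 11 of the 16 lay below the median of their motif in both libraries, against 44.7% of all shared sites, and 3 lay above it in both, against 44.6%. The 11 comprised all 4 sites of Pkm, 3 of Gpi1, 2 of Pgam1 and 1 each of Tpi1 and Pgk1. Those above were the Ldha site, position 383 of Pgam1 and position 962 of Tpi1. The widest departures were at GGACA, where 4 of the 6 member sites, in Gpi1, Tpi1, Pgam1 and Pkm, had a mean fraction under 0.375, the lower quartile of all GGACA sites. Sites on 1 transcript share their reads, so these counts stand for 6 transcripts rather than 16 independent observations.

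**Figure D2:**
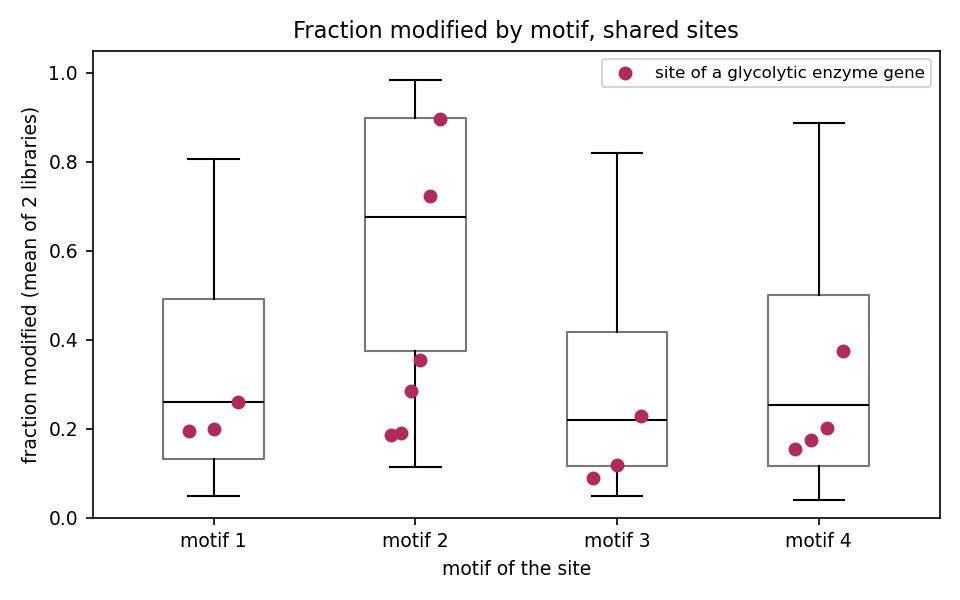
Fraction modified, as the mean of both libraries, for shared sites of each motif: motif 1 is AGACT, motif 2 GGACA, motif 3 GGACC and motif 4 GGACT. Boxes give the quartiles and median of all genes (760, 1868, 1064 and 1159 sites), whiskers the 5th and 95th percentiles, and points the 16 sites of glycolytic enzyme genes, of which 4 at motif 2 and 1 at motif 3 lie under the box.

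Coverage was high at the shared sites and uneven over the 10 genes. A shared site had a median of 207 reads in replicate 1 and 402.5 in replicate 2, against 36 and 78 over all shared sites, and 12 of the 16 had at least 100 reads in both libraries, against 14.3%. The deepest position of Pkm, with 618 and 1238 reads, stood at percentiles 98.8 and 99.3 among all listed genes. Those of Pgk1, Tpi1, Pgam1 and Gpi1 ranged from percentile 94.4 to 98.6, and that of Ldha stood at 98.0 and 80.4. Where the 4 genes without a shared site were listed, coverage at the listed positions was lower: Aldoa reached 36 reads (percentile 79.9) in replicate 1 alone, Gapdh 16 and 6 reads (percentiles 55.8 and 6.22), Hk2 12 reads (percentile 32.2) in replicate 2 alone, and Eno1 was not listed. Reads over a position are not a measure of length, but they count RNA of the whole organoid, in which fewer expressing cells and less RNA per cell cannot be told apart. They also depend on which position and transcript were listed. The deepest listed position of Ldha lay on a different transcript in each library, with 303 and 55 reads. Low coverage at listed positions therefore does not show low expression of a gene.

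Because the members were deep, they were also set beside sites of like depth. Among the 284 shared sites with at least 200 reads in both libraries the median fraction was 0.342 and 0.333, and 47.9% lay below their motif median in both. The 9 member sites of that depth, in Tpi1, Pgk1, Pgam1 and Pkm (position 383 of Pgam1, with 177 reads in replicate 1, falls short of it), had medians of 0.201 and 0.201, and 8 of them lay below. At GGACA alone, 3 member sites of that depth had medians of 0.268 and 0.300, against 0.675 in both libraries for the 104 GGACA sites of all genes. In this depth class too the medians of the member sites were the lower ones in both libraries.

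Along each transcript with several shared sites, coverage rose from the first to the last. In Pkm it went from 351 reads at position 324 to 618 at position 1671 in replicate 1, which is 1.76-fold, and from 788 to 1238 in replicate 2, 1.57-fold. In Gpi1 the rise between positions 613 and 1785 was 1.35-fold and 1.29-fold, and in Pgam1 between positions 383 and 1183 it was 1.24-fold and 1.20-fold. In direct RNA sequencing a read begins at the poly(A) tail and may end before the start of the transcript. Beyond these sites coverage was lower: Gpi1 had 119 reads at position 1785 and 8 at position 2648 in replicate 1, and Pgam1 had 5 reads at position 86 against 177 at position 383. Replicate 2 was the deeper library at every shared site, by 1.66-fold in Pgk1 to 2.41-fold at position 383 of Pgam1.

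**Figure D3:**
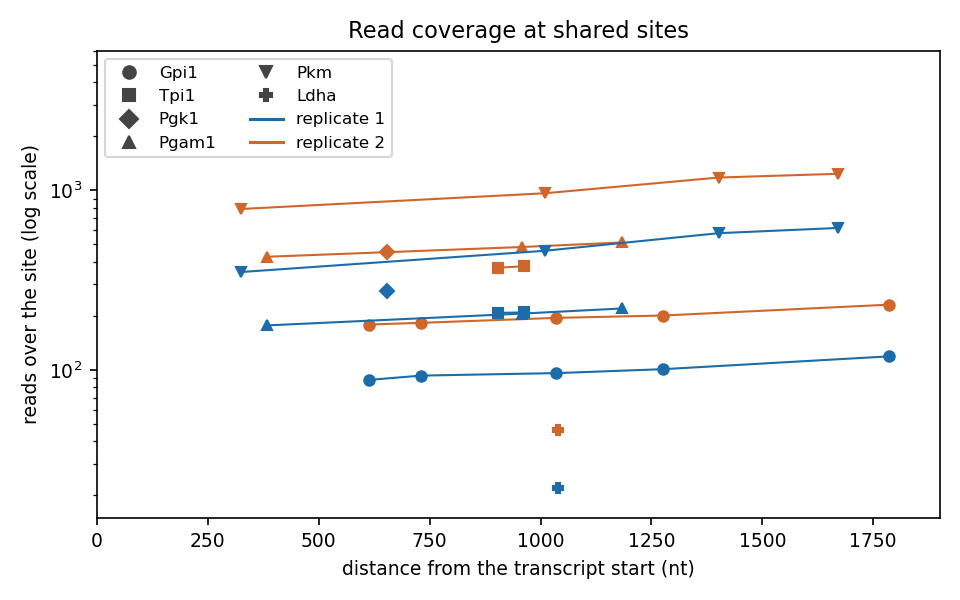
Reads over each of the 16 shared sites (vertical log axis) against the distance from the transcript start in nt, with 1 marker per gene, 1 colour per library and lines joining sites of a transcript. Replicate 2 lies above replicate 1 at every site, and reads increase from left to right in Gpi1, Tpi1, Pgam1 and Pkm.

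The absolute difference in fraction had a median of 0.0264 and a maximum of 0.107, against a median of 0.0512 over all shared sites, most of which are shallower. By the reads of the shallower library, the median was 0.0323 over the 9 member sites with at least 200 reads, against 0.0192 over all 284 sites of that depth. It was 0.0263 against 0.0298 at 100 to 199 reads and 0.0198 against 0.0428 at 50 to 99 reads, over 3 member sites each, and 0.019 against 0.0641 at 20 to 49 reads, where Ldha had the only member site. The members' difference was thus the larger one in the deepest class and the smaller one in the other 3. No member site differed by more than 0.2, against a background of 6%. The fraction was higher in replicate 2 at 10 of the 16 sites, against 45.5% of all. Gpi1, Tpi1 and Pgk1 accounted for 7 of these 10, and the mean over the sites of Pkm and of Pgam1 was lower in replicate 2, by differences of -0.0214 and -0.0310. A binomial sampling SD of the difference was taken from the number of reads at the site. Since fewer reads than the coverage may have been scored, it is a lower limit. The difference exceeded 2 such SD at 3 sites, against 11% of all shared sites. At sites with 200 or more reads in both libraries it did so at 2 of 9 member sites, against 19.4% of all. The 3 sites were position 1785 of Gpi1 (2.33 SD, higher in replicate 2), position 1183 of Pgam1 (2.43 SD, lower) and position 1009 of Pkm (2.61 SD, lower). All 3 are GGACA sites, for which the background was 11.6%, and the other 3 GGACA sites of the set differed by at most 0.823 SD.

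Not every deep position was listed in both libraries. Of the 22 sites of the 10 genes in replicate 1, 16 were listed in replicate 2 (72.7%, against 81.0% over all genes), and of the 19 in replicate 2, 16 were listed in replicate 1 (84.2%, against 74.8%). Of the 9 unshared sites 4 lay on transcripts that had at least 20 reads at another listed position in the other library: position 979 of Pkm, position 1170 of Pgam1 and position 1105 of Ldha in replicate 1, and position 692 of Tpi1 in replicate 2. In replicate 1 these were 3 of 6 unshared sites, against 1111 of 1231 over all genes. In replicate 2 it was 1 of 3, against 1286 of 4091. For Pkm, the flanking positions 324 and 1009 had 788 and 964 reads in the library from which position 979 is missing. The other 5 were in Aldoa and on Ldha transcripts with no such position.

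Other genes of the pathway were taken from a list of 32 isoenzymes, transporters and regulators. Of these 14 were listed in either library and 4 had a shared site: Slc2a1, Slc2a3, Pfkl and Ldhb. Their 22 shared sites had a median fraction of 0.278 ± 0.00438 (SD, n = 2), 12 lay below the median of their motif in both libraries and 2 reached 0.9 in both. Pfkl encodes the liver-type subunit of phosphofructokinase, the main control point of glycolysis, whose step lies between those of Gpi1 and Aldoa. Among its 9 shared sites the 2 GGACA sites had 0.952 ± 0.0210 at position 1809 and 0.968 ± 0.0193 at position 2644, while the other 7 ranged from 0.0396 to 0.302 in mean fraction. Slc2a1, the glucose transporter GLUT1, had 8 shared sites with a mean of 0.295 ± 0.00976 and a highest site of 0.607 ± 0.0438 at position 2128. Ldhb, the B subunit of lactate dehydrogenase, had 4 shared sites, all GGACA, with a mean of 0.616 ± 0.0106 (SD, n = 2). The lowest, at position 1077, had 0.147 and 0.179, and the next one, at position 1089, had 0.764 and 0.794, so that in Ldhb as in Pgam1 sites of equal motif differed by far more than the libraries did.

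The next steps of glucose carbon were taken from 2 further lists. Of 28 pyruvate and tricarboxylic acid cycle genes 13 had a shared site, and their 35 sites had a median fraction of 0.550 ± 0.0831 (SD, n = 2), with 12 below the median of their motif in both libraries and 5 at 0.9 or more in both. The genes of highest coverage, summed over their shared sites, were Sdhb, a subunit of succinate dehydrogenase, with a mean of 0.472 ± 0.0426 over 4 GGACC sites, Mdh1, cytosolic malate dehydrogenase, with 0.739 ± 0.00283 over 2 GGACA sites, and Sdha, the flavoprotein subunit of succinate dehydrogenase, with 0.620 ± 0.0287 over 6 sites of 21 to 45 reads in replicate 1 (each SD, n = 2). Of 7 pentose phosphate genes 3 had a shared site, 13 sites in all, with a median of 0.360 ± 0.0126 (SD, n = 2). Tkt, transketolase, had a mean of 0.299 ± 0.0159 over 3 sites, Pgd, 6-phosphogluconate dehydrogenase, 0.546 ± 0.00247 over 8, and G6pdx, glucose-6-phosphate dehydrogenase, 0.387 ± 0.154 over 2 sites of 20 reads each in replicate 1. In both libraries the median of the glycolytic enzyme genes (0.199 and 0.222) lay below that of the other glycolysis genes (0.281 and 0.275), the pentose phosphate genes (0.351 and 0.369) and the pyruvate and tricarboxylic acid cycle genes (0.609 and 0.491). Motif mix differs among the lists, as GGACA made up 6 of 16, 9 of 22, 7 of 13 and 14 of 35 sites, and these medians carry no test.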

How the data were processed

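Direct RNA sequencing (RNA002 chemistry, 2 libraries, 1 µg of poly(A)-selected RNA, about 48 h per flow cell) was deposited as tables of transcript positions. Per the file headers, each row gives a fraction modified and a coverage: the fraction is the authors' deposited share of modified reads, and the coverage a deposited read count. The denominator of the fraction is not stated, and multiplied by the coverage only 39.4% of the fractions in replicate 1 and 36.0% in replicate 2 give a whole number (to the 4 decimals deposited). No modified read counts were therefore derived. The base caller, aligner, modification caller and transcript reference are not given in the sources used here. Per the submitters' processing notes the genome build is mm10, but 0 of 9 listed members had a deposited gene start within 1000 bases of that in RefSeq GRCm38.p6, so those coordinates are of another build. The tables named minus held no row of the 10 genes. No filter on the fraction was applied.

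Sites needed 20 reads, were matched on transcript version and end position, and for summaries 1 transcript per gene was kept (most shared sites). The median of a motif was taken over all 4851 shared sites of each library. Differences between libraries were summarised as SD (n = 2), with two-sided exact paired permutation tests. Named are all 10 genes and their shared sites, and the 3 genes of highest summed coverage with a shared site in each further list. The members and the lists were chosen with earlier results of these data known. Alternatives were the coverage minimum, the choice of transcript, the matching distance, the threshold of 0.9 and each library alone. Python 3.11.15, pandas 2.3.3, numpy 2.4.6 and scipy 1.17.1 were used, and the matching was tested on simulated data.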

Additional observations from a re-analysis of the deposited data

How the results depend on the processing

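The 16 shared sites, their median fraction of 0.211 and the share of GGACA stayed within 1.5 times, 1 SD and the Wilson interval, respectively, without a coverage minimum, with a minimum of 50 reads, with all transcripts, with the most covered transcript and with matching within 5 nt. With 50 reads 15 sites were left and the median was 0.199, Ldha losing its only site. Without a minimum 10 other glycolysis genes had a shared position in place of 4. With a limit of 0.8 in place of 0.9, 1 site was high in both libraries. At the shared sites the median was 0.199 without replicate 2 and 0.222 without replicate 1. With unshared sites included, on the transcript with the most sites of each gene, it was 0.199 in replicate 1 and 0.252 in replicate 2, and the share of GGACA was 30% and 38.9%. Over all transcripts, an alternative chosen after seeing the data, it was 0.208 and 0.26. With 1 transcript per gene the mean of Pkm in replicate 1 then became 0.256, as position 979 entered. That of Ldha became 0.451 in replicate 1, where an unshared AGACT at position 1105 of the transcript entered, and 0.482 in replicate 2, where another transcript held the most sites. Leaving out the sites of Pkm, chosen after seeing the data, gave a median of 0.249, and leaving out those of Gpi1, Pgam1 or Ldha gave 0.199 to 0.208. Every one of these medians lies under the 0.368 of all genes, which is the value of the main setting and was not recomputed for each alternative. With unshared sites included, over all transcripts, the median of all genes was 0.353 in replicate 1 and 0.345 in replicate 2. No paired analysis was possible because the samples form 1 group, so that replicate numbers pair no samples across groups. The paired permutations of the report pair values within a library. At 20 to 49 reads in the shallower library, where the Ldha site lies, the libraries differed by a median of 0.0641 over all genes, and at 200 or more by 0.0192, which limits what a single fraction can show.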
